A study of Mus musculus and Rattus norvegicus with 6 samples.

Results

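The let-7 family of microRNAs, with miR-98, was followed in small RNA libraries from the retina of rat and mouse. Its members were taken by name: every row of the deposited count tables that starts with let-7, or is miR-98, after the species prefix. This gave 21 of 764 names in the rat table and 23 of 1915 in the mouse table. The 21 rat names are all in the mouse table too (9 5p names and 12 3p names), and let-7j and let-7k are listed for mouse only. The rat group is Sprague Dawley and the mouse group C57BL/6, with 3 libraries each, called r1, r2 and r4 for rat and m1, m3 and m4 for mouse after the columns. All animals were wild type and 9 weeks old. The labels speak of biological samples in triplicate but do not say that each library came from its own animal, so p-values measure the spread between libraries, which may be technical in part. The protocol text speaks of rat eyes for both species. Strain changes with the species, and each species has its own count table, so neither strain nor the making of the tables can be told apart from the species.

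MicroRNAs are cut from hairpin RNAs and guide repressor complexes to messenger RNAs that match their seed, bases 2 to 8 of the mature RNA. The founding let-7 was found as a developmental timing gene of the worm Caenorhabditis elegans. In mammals the family holds down growth and stem cell genes such as Hmga2, Lin28 and the Ras genes, while LIN28 protein in turn blocks the maturation of let-7 hairpins. In the mouse retina let-7 is known to promote the change from early to late progenitors, and it stays high in differentiated neurons. The 5p arm is the guide arm, and the 3p arm is the minor product.

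The 9 abundant members differ by few bases, which decides how far their counts can be told apart, so their mature mouse sequences (RefSeq, GRCm38.p6) are given with the seed in capitals. Rat sequences were not used here, and rat members were matched by name.
mmu-let-7a-5p: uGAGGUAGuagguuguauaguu
mmu-let-7b-5p: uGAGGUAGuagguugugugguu
mmu-let-7c-5p: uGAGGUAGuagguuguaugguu
mmu-let-7d-5p: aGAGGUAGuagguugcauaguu
mmu-let-7e-5p: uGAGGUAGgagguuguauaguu
mmu-let-7f-5p: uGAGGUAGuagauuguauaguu
mmu-let-7g-5p: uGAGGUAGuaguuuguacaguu
mmu-let-7i-5p: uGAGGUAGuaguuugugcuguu
mmu-miR-98-5p: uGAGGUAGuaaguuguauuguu
let-7j: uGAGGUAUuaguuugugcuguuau
let-7k: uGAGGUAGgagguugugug
The 9 members from let-7a-5p to miR-98-5p all carry the seed GAGGUAG. Counting positions from 1 at the 5′ end, let-7c-5p differs from let-7a-5p by A19G alone, let-7e-5p by U9G and let-7f-5p by G12A, and let-7c-5p differs from let-7b-5p by G17A alone. These are 4 of the 36 pairs; 10 pairs differ at 2 positions and the rest at more. How the counting divided reads that fit more than 1 name is not stated in the labels, so the split among let-7a, let-7b, let-7c, let-7e and let-7f is uncertain. Relative to let-7i-5p, let-7j carries G8U, inside the seed, and is longer at its 3′ end. Over 1679 mature mouse names with a sequence, 11 carry the let-7 seed, and miR-1961 is the 1 outside the family, with 15, 15 and 17 counts in m1, m3 and m4.

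The names shared by both tables come from 12 hairpins on 7 mouse chromosomes (GRCm38.p6). Close together on chromosome 13 lie let-7d (chr13:48536012-48536114), let-7f-1 (chr13:48537829-48537917) and let-7a-1 (chr13:48538179-48538272), all on the minus strand and in exons of the long non-coding RNA 6720427I07Rik in the GENCODE annotation. Exons of Lncppara hold let-7c-2 (chr15:85706603-85706697) and let-7b (chr15:85707319-85707403), which are 621 bases apart. Introns of the ubiquitin ligase gene Huwe1 hold let-7f-2 (chrX:151912346-151912428) and miR-98 (chrX:151913214-151913321). An intron of Wdr82 holds let-7g (chr9:106178840-106178927), and an exon of the transcribed pseudogene D630033A02Rik holds let-7i (chr10:122985640-122985724, minus strand). All other hairpins named here lie on the plus strand. Non-coding transcripts shared with other microRNAs hold let-7a-2 (chr9:41536716-41536811, with miR-100 and miR-125b-1) and let-7c-1 (chr16:77599657-77599750, in an intron of Mir99ahg with miR-99a), and let-7e (chr17:17830352-17830444) lies 367 bases before miR-125a in an intron of Spaca6. The hairpin of let-7j (chr3:140028249-140028370) lies in no annotated host gene. Copies 1 and 2 of let-7a, let-7c and let-7f give the same 5p RNA, so the 5p counts cannot be divided between them.

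The libraries held 24169628 to 28198305 counts in rat and 27843590 to 30514632 in mouse. The 5 neural retina markers were present in every library and summed to 45.0% to 54.0% of counts in rat and 50.8% to 53.4% in mouse, led by miR-182 and miR-183-5p. By scaled CPM (defined below), rat library r1 stood apart from r2 and r4. In r1, 46 of 398 tested names lay at least 1 log2 unit from the mean of r2 and r4, against 1 name between r2 and r4. The lens and cornea markers miR-184 and miR-205 summed to 0.937% of counts in r1, 0.177% in r2 and 0.114% in r4, against 0.0311% to 0.125% in mouse. The pigment epithelium markers miR-204-5p and miR-211-5p summed to 2.45% to 3.08% in rat and 1.38% to 1.61% in mouse. The 3 vessel markers summed to 0.751% to 0.795% in rat and 0.418% to 0.5005% in mouse. The 3 muscle markers summed to at most 0.00669% in rat and 0.0883% in mouse. The 3 red blood cell markers summed to at most 0.0295% in rat and 0.0110% in mouse, and the 3 leukocyte markers to at most 0.00659% in rat and 0.00485% in mouse. Single markers ran against their sums: miR-451 was at 0.662 to 3.56 CPM of all counts in rat, against 9.12 to 11.6 in mouse, and miR-206-3p at 27.1 to 32.6 in rat, against 15.9 to 19.3 in mouse. No marker was at 0 in any library, and the part of these differences in the results was not tested.

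The family made up 12.7%, 14.6% and 13.8% of all counts in rat r1, r2 and r4, and 14.9%, 15.8% and 16.3% in mouse m1, m3 and m4. These mouse values count let-7j and let-7k. With both left out they were 14.75%, 15.70% and 16.21%. Every rat library lay below every mouse library either way, the closest being r2 (14.65%) and m1. In such bulk samples, fewer cells that hold a microRNA and less of it per cell cannot be told apart. The exact two-sided permutation test gave p = 0.1, the smallest that 3 against 3 allows. The mean was 13.7% ± 0.974 in rat, against 15.6% ± 0.739 in mouse with let-7j and let-7k left out (SD, n = 3 each). As a share of counts on names shared by both tables, the values were 20.6% ± 0.611 in rat and 21.5% ± 0.904 in mouse (SD, n = 3 each), which overlap (exact permutation p = 0.2).

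Within the family the same members led in both retinas. In both species let-7f-5p was first and let-7g-5p second, and together they held 68.3% ± 2.10 of family counts in rat and 73.7% ± 0.899 in mouse (SD, n = 3 each). Next came let-7i-5p, let-7a-5p and let-7c-5p in both, while let-7b-5p, let-7d-5p, let-7e-5p and miR-98-5p each held under 2% of the family. In rat the neighbours in this order whose libraries overlapped were let-7b-5p with let-7d-5p and let-7d-5p with let-7e-5p. In mouse they were let-7i-5p with let-7a-5p and let-7d-5p with let-7b-5p. Other neighbours did not overlap, although in rat the lowest let-7a-5p library (6.44%) lay just above the highest let-7c-5p library (6.35%).

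**Figure D1:**
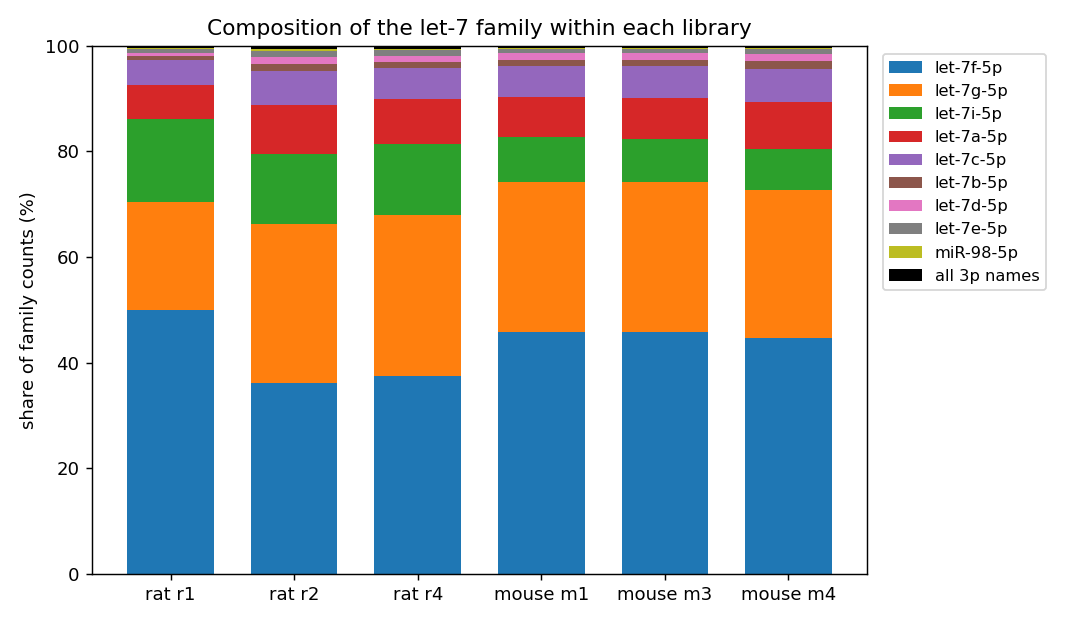
Share of the family's counts (%, linear axis from 0) held by each 5p name and by all 3p names together in each library, with the 3 rat libraries left and the 3 mouse libraries right. The band of let-7i-5p is 13.1% to 15.7% in the rat libraries and 7.87% to 8.48% in the mouse libraries, and rat r1 has the widest band of let-7f-5p.

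By share of the family, let-7i-5p stood higher in rat. It held 15.7%, 13.1% and 13.6% of family counts in r1, r2 and r4, against 8.48%, 8.27% and 7.87% in m1, m3 and m4, so the species did not overlap. Scaled by the family total, it rose in rat by 0.78 ± 0.14 on the log2 scale (SE; edgeR quasi-likelihood test, adjusted p = 0.00271 over 398 names). It was called under each of 11 alternatives, with log2 differences of 0.67 to 0.83 and adjusted p of 1.32e-06 to 0.0215. The lowest difference came from adding let-7j to let-7i-5p in mouse. In mouse, let-7j had 30877, 33992 and 32244 counts, which is 8.87%, 8.57% and 8.97% of the let-7i-5p count in the same library. Whether let-7j counts are reads of let-7i-5p was not tested. With them added, let-7i held 8.52% to 9.16% of the mouse family, still below every rat library. The other mouse name, let-7k, had 62, 78 and 75 counts.

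Of 20 family names tested by share, 2 rose in rat (let-7i-5p and miR-98-3p) and 0 fell by edgeR (at an unadjusted p under 0.05, 2 rose and 1 fell; limma called 1 higher and 0 lower). By this scaling 45.5% of all 398 names were called, 35.2% higher and 10.3% lower in rat. The libraries of the species did not overlap for 5 of the 20 names, where 56.5% of all names tested did not. The family's rates cannot be compared directly with those of all names. The scaling sets the family total equal in every library, while other names carry the difference in the family's level. The median difference was -0.06 for the 9 5p names and 0.25 for the 20 names, against 0.48 over all names. The share of let-7f-5p was 49.9% in r1, 36.1% in r2 and 37.4% in r4, against 45.7%, 45.7% and 44.7% in mouse. The share of let-7g-5p was 20.6% in r1, 30.2% in r2 and 30.5% in r4, against 28.6%, 28.4% and 28.0% in mouse. Both overlapped between species, with r1 on the far side of the mouse libraries from r2 and r4, and neither was called (log2 differences -0.14 ± 0.17, adjusted p = 0.503, and -0.06 ± 0.18, adjusted p = 0.783). Without r1, let-7f-5p fell in rat by 0.30 ± 0.07 (adjusted p = 0.00141) and let-7e-5p rose by 0.50 ± 0.08 (adjusted p = 4.69e-05). In that fit 13 family names were higher and 2 lower by share, where 79.4% of all 413 names were called, 63.7% higher and 15.7% lower. The 13 include let-7a-1-3p and let-7c-2-3p, which are the same sequence in mouse and not separate measurements.

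In abundance relative to the other names shared by both tables, 5 of the 9 guide arms fell in rat. Shared names held 63.7% to 69.2% of counts in rat and 71.5% to 73.5% in mouse. Names spelled differently between the tables are left out, among them miR-182 and miR-9a-5p of rat (miR-182-5p and miR-9-5p in mouse). Of all counts, miR-182 was at 200317 to 291655 CPM in rat and 182813 to 203277 CPM in mouse. Levels here are scaled CPM (counts on shared names, depth-scaled with TMM factors), and differences are rat over mouse on the log2 scale with their SE. Of the 20 names tested (let-7a-2-3p, with at most 8 counts, was filtered out), 6 fell in rat and 0 rose (edgeR; at an unadjusted p under 0.05, 7 and 0; DESeq2 also called 6 and 0). Among all 398 names 24.4% fell and 25.6% rose. The median difference of the 9 5p names was -0.46 and of the 20 names -0.16, against 0.08 over all names tested. The libraries of the species did not overlap for 9 of the 20 names, where 59.8% of all names tested did not.

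The largest fall among the guide arms called was in let-7d-5p, from the chromosome 13 cluster. Its level was 1701, 2214 and 1816 CPM in r1, r2 and r4, against 2992, 3089 and 3369 CPM in m1, m3 and m4. Every rat library was below every mouse library, and the difference was -0.72 ± 0.16 (adjusted p = 0.00555). The guide arms let-7b-5p and let-7c-5p, which differ by 1 base, also fell. For let-7b-5p the levels were 1892, 2360 and 1951 CPM in rat, against 2918, 3144 and 3210 CPM in mouse (-0.58 ± 0.16, adjusted p = 0.0130). For let-7c-5p they were 11563, 10387 and 9121 CPM in rat, against 13657, 14769 and 14785 CPM in mouse (-0.48 ± 0.16, adjusted p = 0.0385). The species did not overlap in either.

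The X-linked miR-98-5p, the least abundant of the 9, was at 356, 493 and 402 CPM in rat, against 543, 581 and 598 CPM in mouse (-0.46 ± 0.16, adjusted p = 0.0399). The second most abundant member, let-7g-5p, was at 50921, 49469 and 47320 CPM in rat, against 67954, 70218 and 64875 CPM in mouse (-0.46 ± 0.16, adjusted p = 0.0426). Neither overlapped between species. For let-7a-5p the levels were 15948, 15348 and 12994 CPM in rat, against 18138, 19070 and 20431 CPM in mouse. These did not overlap either, but the difference of -0.38 ± 0.17 was not called (adjusted p = 0.0859).

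The remaining 3 guide arms were not called. The most abundant, let-7f-5p, was at 123585 CPM in r1, 59013 in r2 and 58082 in r4, against 108730, 112991 and 103622 CPM in mouse. By this scaling r1 lay above every mouse library and r2 and r4 far below, and the difference was -0.43 ± 0.30 (adjusted p = 0.258). The TMM factors were 0.806 in r1, 1.29 in r2 and 1.32 in r4, against 0.864 to 0.967 in mouse. As a share of all counts let-7f-5p was at 6.34% in r1, 5.28% in r2 and 5.18% in r4, against 6.74% to 7.24% in mouse. By that share r1 lay below every mouse library. Without r1 the log2 difference of let-7f-5p in scaled CPM was -0.89 ± 0.06 (adjusted p = 3.17e-07). The same library was highest for let-7i-5p, at 38850, 21455 and 21050 CPM in rat, against 20164, 20450 and 18259 CPM in mouse. Its difference was 0.47 ± 0.25 (adjusted p = 0.160), and without r1 it was 0.12 ± 0.06 (adjusted p = 0.0830). As a share of all counts let-7i-5p was at 1.99%, 1.92% and 1.88% in r1, r2 and r4, against 1.25% to 1.30% in mouse. For let-7e-5p, at 1872, 1801 and 1561 CPM in rat against 1732, 1816 and 1789 CPM in mouse, the libraries overlapped (-0.03 ± 0.14, adjusted p = 0.878).

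**Figure D2:**
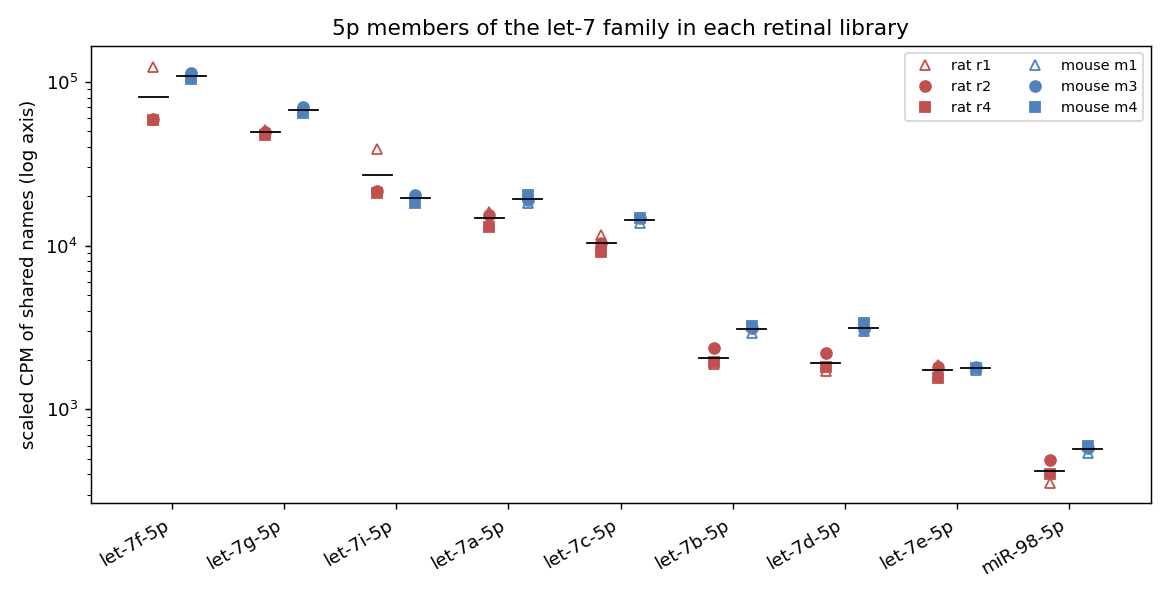
Scaled CPM of shared names (log axis) of the 9 5p names in each library, rat (red) left of mouse (blue), with a black line at each group's arithmetic mean; open triangles are r1 and m1. Rat r1 lies apart from r2 and r4 for let-7f-5p and let-7i-5p, and 6 of the 9 names have all rat points below all mouse points.

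These calls changed with the scaling and with single libraries. With library totals of the shared names in place of TMM factors, the median of all names moved up by 0.36, the median of the 9 5p names was -0.12 and that of the 20 names 0.19. In that fit 0 family names were called lower (1 at an unadjusted p under 0.05; DESeq2 with its own scaling called 6) and let-7i-5p was called higher (0.72, adjusted p = 0.00310; 42.7% of all names were called, 31.9% higher and 10.8% lower). Without r1, 10 family names fell, 7 of them 5p names, where 34.4% of all 413 names fell and 36.6% rose (70.9% in all). Without a single other library the number that fell was 3 (m1), 2 (m3), 3 (m4), 4 (r2) or 2 (r4). The calls of let-7c-5p and let-7g-5p were lost without any 1 library other than r1, that of miR-98-5p without m1, m3, m4 or r4, and that of let-7b-5p without m3 or r4. The fall of let-7d-5p was called in 11 of 13 alternatives and that of let-7f-1-3p also in 11 of 13, the exceptions being both scalings by library totals.

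**Figure D3:**
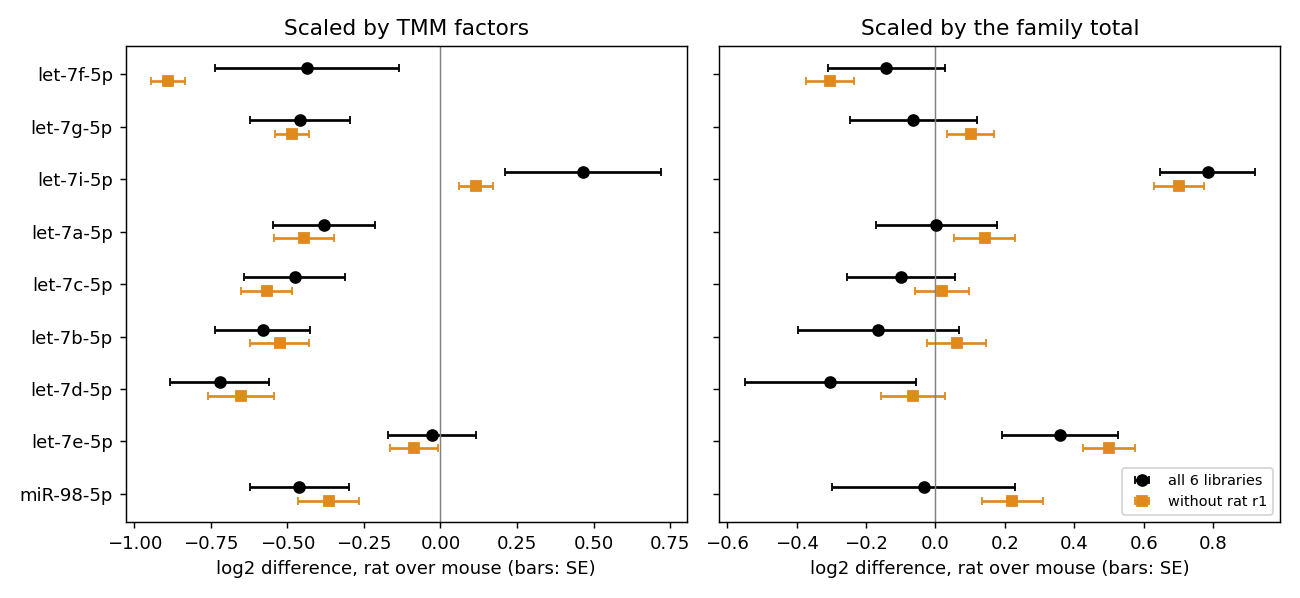
Log2 difference of rat over mouse for each 5p name, with SE bars, scaled by TMM factors (left) and by the family total (right), from all 6 libraries (black circles) and without rat r1 (orange squares). On the right let-7i-5p is at 0.78 and 0.70 and stands above the other members, and on the left let-7f-5p is at -0.43 with all libraries and at -0.89 without r1.

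In scaled CPM the summed level of the family also set r1 apart from r2 and r4. It was 247546 CPM in r1, 163552 in r2 and 155162 in r4, against 237845, 247126 and 231903 CPM in mouse. Without TMM factors r1 was instead the lowest library, with 12.7% of all counts. Of counts on shared names the family held 19.95% in r1, 21.2% in r2 and 20.5% in r4, against 20.6% to 22.4% in mouse. The place of r1 thus depends on the scaling. Among 134 names outside the family with a mean of at least 100 CPM, the 3 most like the scaled CPM of the summed family over the 6 libraries were miR-1839-5p (Pearson r = 0.989 on log2 values), miR-674-3p (0.986) and miR-183-5p (0.985). These are descriptions over 6 libraries that share their species and, in r1, a departure. Inside the family the likeness to the sum was 0.994 for let-7f-5p, 0.740 for let-7g-5p and 0.245 for let-7i-5p, with let-7f-5p itself a large part of the sum.

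The minor arms were a small part of the family. All 3p names together held 0.346%, 0.619% and 0.559% of family counts in r1, r2 and r4, against 0.428%, 0.404% and 0.416% in m1, m3 and m4. Of these, let-7d-3p alone made up 54.6% ± 8.76 in rat and 55.4% ± 2.04 in mouse (SD, n = 3 each). The 3p total takes in both let-7a-1-3p and let-7c-2-3p, whose counts are nearly equal (below). If the same reads were counted under both names, the 3p total is too high and the part of let-7d-3p too low. The 3p sequences below show which minor arms can be told apart, with bases 2 to 8 in capitals.
let-7d-3p: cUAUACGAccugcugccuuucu
let-7a-1-3p: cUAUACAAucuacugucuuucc
let-7c-2-3p: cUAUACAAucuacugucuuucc
let-7c-1-3p: cUGUACAAccuucuagcuuucc
let-7f-1-3p: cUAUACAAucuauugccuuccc
let-7f-2-3p: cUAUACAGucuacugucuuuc
In mouse, let-7a-1-3p and let-7c-2-3p are the same sequence, although their hairpins lie on chromosomes 13 and 15. Their counts were 1310 and 1309 in r1, 4705 and 4705 in r2 and 4296 and 4296 in r4, against 3015 and 3015 in m1, 3386 and 3387 in m3 and 3016 and 3017 in m4. The counts differ by at most 1 in any library, so the names are not separate measurements, and their reads cannot be assigned to either hairpin.

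The balance of the arms differed widely among the hairpins. The 3p share of both arms was 24.6%, 18.4% and 19.2% for let-7d in r1, r2 and r4, against 15.7%, 14.8% and 14.2% in m1, m3 and m4. At the other end, let-7g had 20 to 39 counts of its 3p arm in rat libraries, against 22 to 28 in mouse libraries, or 0.00298% ± 0.000420 of both arms in rat and 0.00194% ± 0.000104 in mouse (SD, n = 3 each). Between them, let-7a, let-7b, let-7c, let-7e and miR-98 lay at 0.864% to 1.64% in rat and 0.475% to 1.20% in mouse as means, and let-7f and let-7i at 0.0416% and 0.0303% in rat, against 0.0387% and 0.0415% in mouse. The 3p shares of let-7a and let-7c both include the counts of this shared sequence.

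None of the 9 hairpins, with copies summed, was called for its log2 ratio of 5p to 3p by limma (at an unadjusted p under 0.05, 3 were lower and 0 higher in rat), while 23.7% of 186 hairpins were called (7.53% higher and 16.1% lower). A missing call does not show that the ratios are alike. The 3 were miR-98 (-0.85 ± 0.26, adjusted p = 0.0650), let-7g (-0.61 ± 0.20, adjusted p = 0.0867) and let-7d (-0.57 ± 0.22, adjusted p = 0.125), and their species did not overlap. In each the 3p arm took a larger part in every rat library. The median of the 9 differences was -0.39, against -0.20 over all 186 hairpins. Without r1, 5 of the 9 were called lower (let-7a, let-7c, let-7d, let-7f and let-7g), where 42.7% of 192 hairpins were called and 29.2% were lower. The 3p counts of let-7a and let-7c are mostly those of their shared sequence, so their calls are not separate results. Without r2, miR-98 was called (-1.04, adjusted p = 0.0406). For let-7f and let-7i the 3p share in r1 was 0.0179% and 0.0127%, against 0.0377% to 0.0540% in r2 and r4. Library r1 is also the library in which the scaled CPM of their 5p arms was highest.

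**Figure D4:**
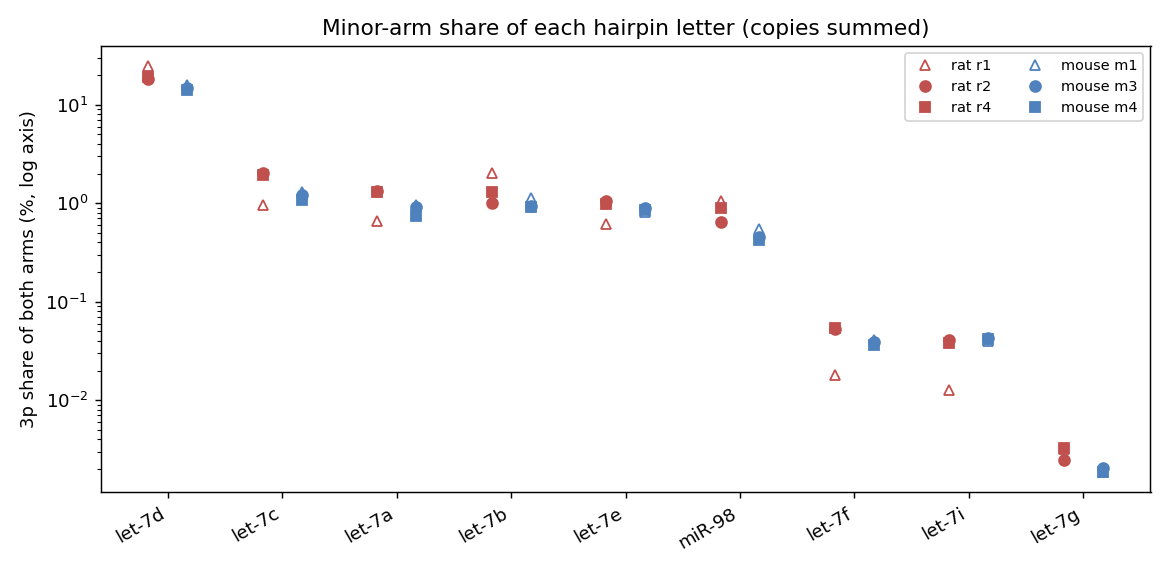
3p share of both arms (%, log axis) for each hairpin letter, copies summed, in each library, rat (red) left of mouse (blue); open triangles are r1 and m1. The shares run from about 20% for let-7d to 0.002% to 0.003% for let-7g, and all rat points lie above all mouse points for let-7d, miR-98 and let-7g.

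Single minor arms add what the shared 5p names hide. The only 3p name called in abundance was let-7f-1-3p, from the chromosome 13 cluster, with 153, 242 and 253 counts in r1, r2 and r4, against 370, 413 and 354 in m1, m3 and m4. Its level of 12.3, 10.7 and 10.1 CPM in rat was below 21.4, 21.3 and 18.0 CPM in mouse in every library (-0.88 ± 0.18, adjusted p = 0.00381). From the same cluster let-7d-3p, with 6885, 11303 and 10864 counts in rat against 9621, 10413 and 10968 in mouse, was not called (-0.15 ± 0.15, adjusted p = 0.422). The second let-7f copy, let-7f-2-3p from the X-linked pair, had 122, 464 and 537 counts in rat, against 393, 448 and 387 in mouse, and overlapped between species.

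Copy 1 therefore made up 55.6% of let-7f minor-arm counts in r1, 34.3% in r2 and 32.0% in r4, against 48.5%, 48.0% and 47.8% in m1, m3 and m4. The exact (Clopper-Pearson) 95% intervals of r2 (30.8% to 37.9%) and r4 (28.8% to 35.4%) lie below those of the mouse libraries (44.1% to 52.1% in all), and that of r1 (49.5% to 61.6%) overlaps them. These intervals cover counting error only and take reads as independent. Over 3 libraries each the means of 40.6% ± 13.03 in rat and 48.1% ± 0.372 in mouse (SD, n = 3 each) did not differ beyond their spread (exact permutation p = 0.4). Copy 1 of let-7c held 6.63%, 4.35% and 4.34% in rat, against 4.04%, 4.16% and 4.65% in mouse, counting under copy 2 the reads shared with let-7a-1 (exact permutation p = 0.4). Copy 2 of let-7a was almost without minor-arm reads, with 4 to 8 counts in the libraries of either species.

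**Figure D5:**
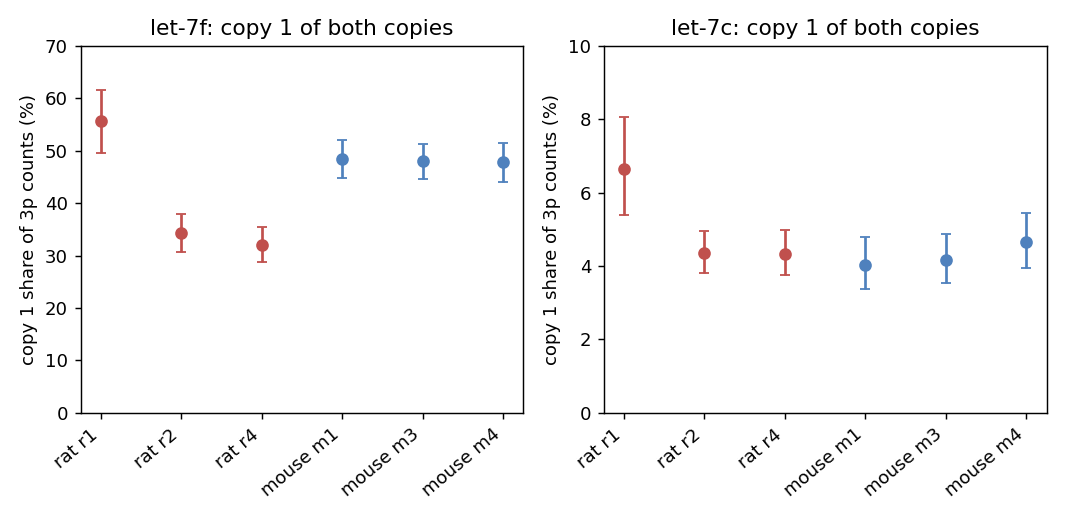
Share of copy 1 in the 3p counts of both hairpin copies (%, linear axis from 0) for let-7f (left) and let-7c (right) in each library, with exact 95% binomial intervals. For let-7f rat r2 and r4 lie below the mouse libraries while rat r1 lies above them.

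The remaining minor arms overlapped between species in abundance, except miR-98-3p. It had 47, 73 and 91 counts in rat, against 52, 51 and 50 in mouse. As a share of the family it rose (0.77 ± 0.25, adjusted p = 0.0398), a call lost in 7 of 11 alternatives, among them each fit without m1, m3, m4, r2 or r4. For let-7b-3p the counts were 488, 545 and 641 in rat, against 580, 572 and 579 in mouse. For let-7e-3p they were 143, 435 and 389 in rat, against 247, 316 and 301 in mouse. In scaled CPM, r1 was the highest of all libraries for let-7b-3p (39.3) and the lowest for let-7e-3p (11.5). The 3p arm let-7i-3p had 61, 197 and 200 counts in rat, against 139, 170 and 150 in mouse, and let-7c-1-3p 93, 214 and 195 in rat, against 127, 147 and 147 in mouse.

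Of 5 guide arms from hairpins that lie near let-7 hairpins or share a host transcript with them, 0 were called by edgeR (0 at an unadjusted p under 0.05), where 50% of all 398 names were called. The species did not overlap for 2 of the 5, miR-99b-5p (rat above mouse) and miR-125b-5p (rat below mouse). Beside let-7c-1, miR-99a-5p was at 46113, 33216 and 30374 CPM in rat, against 32285, 36527 and 30109 CPM in mouse (0.15 ± 0.21, adjusted p = 0.579), and miR-100-5p, beside let-7a-2, differed by 0.10 ± 0.22 (adjusted p = 0.721). Beside let-7e, miR-99b-5p differed by 0.59 ± 0.27 (adjusted p = 0.102) and miR-125a-5p by -0.26 ± 0.25 (adjusted p = 0.421). For miR-125b-5p, a partner of both let-7a-2 and let-7c-1, the levels were 4721, 8763 and 7195 CPM in rat, against 9133, 10152 and 9567 CPM in mouse (-0.48 ± 0.23, adjusted p = 0.112). A missing call does not show that their levels are alike. Of the 5 minor arms of these hairpins that were tested, 3 rose in rat and 0 fell by edgeR (25.6% of all names rose); they were looked up after the values were seen. The largest rise was in miR-125b-2-3p, at 503, 335 and 327 CPM in rat, against 174, 195 and 166 CPM in mouse (1.12 ± 0.20, adjusted p = 0.00145). The others were miR-99b-3p (0.79 ± 0.26, adjusted p = 0.0322) and miR-99a-3p (0.92 ± 0.31, adjusted p = 0.0367), the libraries of miR-99a-3p overlapping between species.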

How the data were processed

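Each species has 1 table of counts, which the authors deposited unnormalized, by mature miRNA; sequencing gave single-end reads of 50 bases, per the labels' protocols. Trimming, the aligner, the annotation release and the counting of reads that fit more than 1 name: not stated in the labels. The columns do not carry the replicate numbers of the labels, so each was assigned to its species only. Names were joined after the species prefix (542 shared).

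Abundance used edgeR 4.0.16 in R 4.3.3: filterByExpr (398 names), TMM, quasi-likelihood F test, species as the only term, Benjamini-Hochberg adjustment over all names tested, called under 0.05; SE is the log2 difference over the square root of F. Composition used the same test with the summed 21 shared family names as library size. Arm ratios used limma 3.58.1 on log2((5p + 0.5)/(3p + 0.5)) for hairpins whose arms sum to at least 50 counts in every library. DESeq2 1.42.0 was an alternative. Tests were run on simulated data first. Members and lists were chosen with earlier results of these data known; minor arms with at least 50 counts in every library of a species, and the 3 names most like the family, were named by rule. Sequences are from the RefSeq table of GRCm38.p6; all 23 mouse names matched.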

Additional observations from a re-analysis of the deposited data

How the results depend on the processing

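No paired analysis was possible because the columns do not carry the replicate numbers of the labels. Those labels number the libraries of each species separately and name no rat library as the partner of a mouse library. Equal numbers are thus not known to be pairs. With library totals of shared or of all names in place of TMM, 1 family name was called higher and 0 lower (6 lower with TMM), and uncalled differences turned positive, among them let-7d-3p (0.16 and 0.054) and let-7e-5p (0.30 and 0.19); with totals of shared names 7 of the 20 did so, and the median of the 20 was 0.19 (-0.16 with TMM). Names higher by share numbered 1 with limma and 1 without a filter on low counts, against 2; limma gave let-7a-5p -0.011. Leaving out 1 library gave 2 to 10 names lower in abundance (10 without r1), 1 to 13 higher and 0 to 2 lower by share, and 0 to 5 hairpins with a lower 5p to 3p ratio, the highest number each time without r1. In the same fits some uncalled differences changed sign. Among the 5p names this held in abundance for let-7e-5p (-0.085 to 0.058). By share it held for let-7a-5p (-0.12 to 0.14), let-7b-5p (-0.36 to 0.061), let-7c-5p (-0.19 to 0.020), let-7g-5p (-0.16 to 0.10) and miR-98-5p (-0.25 to 0.22). In arm ratio let-7e (-0.26 to 0.14) and let-7f (-0.47 to 0.33) changed sign, as did the share of let-7a copy 1 (-0.0798 to 0.000675 percentage points). Leaving out r1 also turned the uncalled abundance differences of let-7a-1-3p (-0.053 to 0.18), let-7c-2-3p (-0.053 to 0.18) and let-7i-3p (-0.17 to 0.031) positive. Except let-7d-3p and let-7f-1-3p in abundance and miR-98-3p by share, 3p names were not followed without each other library. Without r1, miR-98-5p by share (0.22) and let-7f in arm ratio (-0.47) were called. The cause of these changes was not tested. The family's share of all counts, lower in rat, kept its direction in 9 of 9 alternatives (-2.39 to -0.905 percentage points), as did let-7i-5p by share in 11 of 11. Adding let-7j to let-7i-5p and leaving let-7j and let-7k out of the share were chosen after the data were seen. Counts near or under 50 limit what can be said of let-7g-3p, let-7a-2-3p and miR-98-3p. The last had 47 counts in r1 and 52, 51 and 50 in m1, m3 and m4.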
